A study of Mus musculus with 6 samples.

Results

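Both remodeller depletions were taken as 1 side and set against the Control. The depleted side held 4 libraries, Brg1KD replicates 1 and 2 and Ino80KD replicates 1 and 2, and the other side held Control replicates 1 and 2, so that all 6 libraries of the study entered. Every entry of the 6 deposited loop lists was included, 70436 on the depleted side and 37265 on the Control side, or 107701 of 107701. The question was which promoter contacts differ in the same direction whichever remodeller is lost. All libraries came from wild type E14 mouse embryonic stem cells, a male pluripotent line grown here in serum with leukaemia inhibitory factor. Cells were harvested 48 h after transfection with esiRNA, a mixture of short interfering RNAs cut from a long RNA by an endoribonuclease. The esiRNA was directed at EGFP, a gene these wild type cells should lack, in Control, at Smarca4 in Brg1KD and at Ino80 in Ino80KD. The labels put Control 1, Brg1KD 1 and Ino80KD 1 in batch 1, Control 2 in batch 2 and both second depleted libraries in batch 3. Nothing in the labels states that replicates were separate cultures, so the spread, and any p-value from it, may be technical. Without RNA data, neither the extent of a knockdown nor the cell type could be checked against transcripts.

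Brg1 is the ATPase of the esBAF complex of embryonic stem cells, which slides and ejects nucleosomes and opens enhancers and promoters. INO80 is a different remodeller, whose ATPase Ino80 spaces nucleosomes beside promoters and acts in replication and repair. Promoters contact enhancers and each other across the loops and domains formed by cohesin and CTCF. Promoter-capture Micro-C ligates nucleosome-sized fragments that lie together in fixed chromatin and enriches the products for baited promoter fragments. A loop below is a listed pair of a bait and another end. The lists start at a score of 5, a score being the authors' own measure within one list. A pair that is not listed may have scored lower or have been filtered out, and its absence is not shown.

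The promoters of 4 baits on which the bait and loop results turn are shown from 250 bases before to 50 bases after the annotated start, taken from RefSeq for the assembly GRCm38.p6 (mm10 coordinates) and written 5′ to 3′ on the gene's strand. Rbmxl2 and Nmrk2 were the named baits with the largest differences downward and upward in listed loops per 1000, and Igfbp1 and Pnma3 were named both among the baits and among the single loops. Capitals mark 4 short motifs found on either strand, where matches of different motifs were free to overlap. The GC box, the site of Sp factors, was searched as GGGCGG. The site of the factor NF-Y was searched as CCAAT. Part of the core of the CTCF motif was searched as AGGGGGC, and the TATA box of focused promoters was searched as TATAAA.
Rbmxl2 (chr7:107209195-107209494, plus strand): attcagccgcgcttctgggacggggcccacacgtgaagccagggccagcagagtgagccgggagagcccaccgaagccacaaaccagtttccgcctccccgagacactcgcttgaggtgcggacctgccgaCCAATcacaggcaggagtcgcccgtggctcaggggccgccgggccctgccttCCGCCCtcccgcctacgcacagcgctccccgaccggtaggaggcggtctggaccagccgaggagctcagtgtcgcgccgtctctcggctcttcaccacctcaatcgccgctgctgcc
Igfbp1 (chr11:7197537-7197836, plus strand): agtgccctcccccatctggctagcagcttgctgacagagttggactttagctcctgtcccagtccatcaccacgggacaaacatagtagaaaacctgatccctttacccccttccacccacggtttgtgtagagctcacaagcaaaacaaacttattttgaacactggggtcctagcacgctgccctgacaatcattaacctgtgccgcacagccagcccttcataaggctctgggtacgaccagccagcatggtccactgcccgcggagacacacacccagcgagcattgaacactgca
Nmrk2 (chr10:81201988-81202287, minus strand): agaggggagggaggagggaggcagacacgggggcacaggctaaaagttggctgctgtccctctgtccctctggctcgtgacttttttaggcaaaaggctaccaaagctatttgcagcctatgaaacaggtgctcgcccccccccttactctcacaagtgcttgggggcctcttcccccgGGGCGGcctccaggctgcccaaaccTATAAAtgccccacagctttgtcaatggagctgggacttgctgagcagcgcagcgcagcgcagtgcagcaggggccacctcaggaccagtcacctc
Pnma3 (chrX:73064537-73064836, plus strand): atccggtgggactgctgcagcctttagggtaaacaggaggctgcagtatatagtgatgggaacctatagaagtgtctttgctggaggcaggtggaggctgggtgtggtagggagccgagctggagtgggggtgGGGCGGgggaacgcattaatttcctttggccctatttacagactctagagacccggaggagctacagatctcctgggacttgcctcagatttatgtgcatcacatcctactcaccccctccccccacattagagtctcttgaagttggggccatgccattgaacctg
The Igfbp1 promoter held none of these letter strings, Pnma3 held 1 GC box, Rbmxl2 held 1 GC box and 1 NF-Y site, and Nmrk2 held 1 GC box and 1 TATA box. Among 21263 such promoters of protein-coding genes in the table, 46.2% held the GC box, 38.2% the NF-Y site, 12.9% the CTCF letters and 12.6% the TATA box. The 73 promoters on baits that listed fewer loops in every depleted library, as defined below, held them in 37.0%, 41.1%, 10.96% and 8.22% of cases, in the same order. For the 106 promoters on baits that listed more loops, the shares were 49.1%, 36.8%, 17.0% and 8.49%. Over the 1359 promoters on all baits counted they were 44.4%, 37.6%, 13.7% and 14.4%. The median GC content was 54.3% in the first set, 58.3% in the second and 55.7% over the 1359 promoters on all baits counted. These matches are a description of the letters and were not tested.

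The lists held from 16585 to 19045 entries each, and 1 library stood apart from the rest. Interchromosomal loops numbered 3809 in Brg1KD 1 and between 2405 and 2942 in the other 5 libraries. Brg1KD 1 also had the fewest intrachromosomal loops and the shortest spans, so library values that rest on it are given with and without it. The depth of each library is unknown, since the files used here hold no contact counts. One bait, chr2:98661117-98662976, was absent from the authors' lists per group and was left out throughout. It listed 1003 and 884 loops in Control 1 and 2, 1504 and 1023 in Brg1KD 1 and 2, and 1124 and 1155 in Ino80KD 1 and 2. Nearly all were interchromosomal, and every depleted library listed more of them than either Control library.

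Neither the number nor the reach of intrachromosomal loops separated the depleted libraries from Control. The Control lists held 15322 and 14394 loops, the Brg1KD lists 12254 and 12962, and the Ino80KD lists 14675 and 14113. The depleted mean was 13501 ± 1095 (SD, n = 4) against 14858 ± 656 (SD, n = 2), and Ino80KD 1 lay between the Control libraries. The two-sided exact permutation p was 0.267. With 15 ways to choose the Control pair, 0.133 is the smallest p this comparison allows, so no library value could pass 0.05. Within batch 1, Brg1KD 1 and Ino80KD 1 averaged 13465 loops against 15322 in Control 1, and without Brg1KD 1 the depleted mean was 13917 ± 873 (SD, n = 3). The difference was mostly that of the Brg1KD libraries, whose mean was 12608 ± 501 (SD, n = 2), whereas the Ino80KD mean was 14394 ± 397 (SD, n = 2).

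The median distance between the ends was 249 and 280 kb in Control, 220 and 259 kb in Brg1KD, and 242 and 245 kb in Ino80KD. Brg1KD 2 lay inside the Control range, and the means of 241 ± 16.4 kb (SD, n = 4) and 265 ± 22.4 kb (SD, n = 2) gave an exact permutation p of 0.267. Within batch 1 the depleted mean was 231 kb against 249 kb, and without Brg1KD 1 it was 249 ± 9.38 kb (SD, n = 3). Loops over 1 Mb made up 8.59% and 10.4% of the Control lists, 4.40% and 8.11% of Brg1KD, and 8.74% and 9.48% of Ino80KD. Both Ino80KD values fell within the Control range (exact permutation p = 0.4), and without Brg1KD 1 the depleted mean was 8.78% in place of 7.68%. Loops joining 2 baits made up 4.33% and 3.45% in Control, 2.64% and 3.34% in Brg1KD, and 4.17% and 5.42% in Ino80KD. The means of 3.89% ± 0.628 (SD, n = 2) in Control and 3.89% ± 1.19 (SD, n = 4) after depletion hid opposite positions of the depletions, with both Brg1KD libraries below both Control libraries and 1 of the Ino80KD libraries above them (exact permutation p = 0.933). Without Brg1KD 1 the depleted mean was 4.31% ± 1.05 (SD, n = 3). Interchromosomal loops averaged 2907 ± 624 (SD, n = 4) after depletion and 2831 ± 157 (SD, n = 2) in Control (exact permutation p = 0.933), and 2606 ± 204 (SD, n = 3) without Brg1KD 1.

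**Figure D1:**
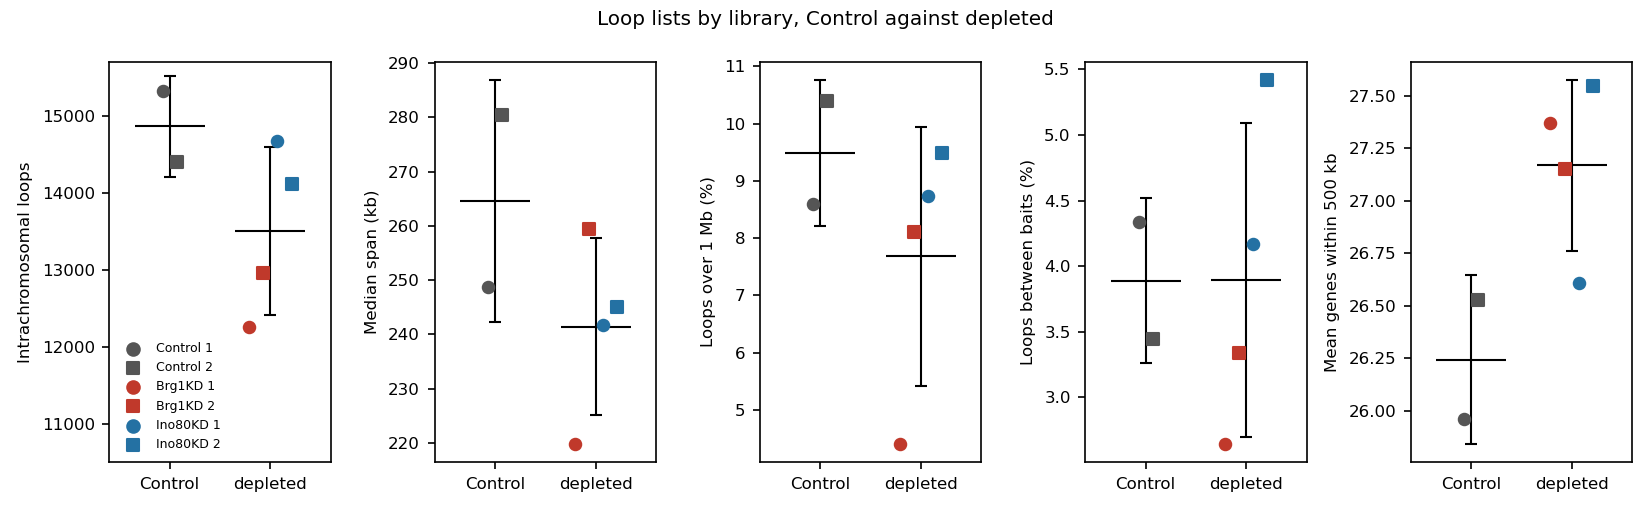
Each panel plots 1 measure of the loop lists for the 2 Control and 4 depleted libraries, with symbols for the libraries and black bars for the mean ± SD of each side; the axes do not start at 0. The sides overlap in the number of intrachromosomal loops, the median span in kb, the percentage over 1 Mb and the percentage between baits, and do not overlap in the mean number of genes within 500 kb of the bait.

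By the mean over loops, the baits of depleted lists lay in slightly more gene-rich surroundings, which did not hold under every way of counting. The mean number of protein-coding genes within 500 kb of the bait, taken over loops, was 26.0 and 26.5 in Control, 27.4 and 27.2 in Brg1KD, and 26.6 and 27.5 in Ino80KD. All depleted libraries lay above both Control libraries, with means of 27.2 ± 0.408 (SD, n = 4) and 26.2 ± 0.403 (SD, n = 2), and the nearest pair, Ino80KD 1 and Control 2, differed by less than 1 SD. Of 16 measures of the lists it was the only one in which the sides did not overlap. It was picked out for that reason after the values were seen, so it carries no test. Within batch 1 the depleted mean was 27.0 against 26.0, and without Brg1KD 1 it was 27.1 ± 0.472 (SD, n = 3). The gap was narrowest between Ino80KD 1 and Control 2. The sides overlapped in 4 of 7 other settings, namely with medians in place of means, with each bait counted once, with a score of at least 7, and with a window of 1000 kb (47.8 genes in Ino80KD 1 against 47.9 in Control 2). Baits with 9 or fewer genes within 500 kb took 19.4% and 18.8% of the Control loops. They took 16.1% and 17.2% of the Brg1KD loops, and 18.4% and 16.7% of the Ino80KD loops. Every depleted library was lower there. Baits with 40 or more genes took 22.8% and 23.7% in Control, 24.4% and 24.5% in Brg1KD, and 23.9% and 25.4% in Ino80KD. Every depleted library was higher at those baits, while the sides overlapped in the 3 classes between.

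Chromosome 11 listed 98.3 and 98.7 loops per 1000 intrachromosomal loops in Control, 113 and 110 in Brg1KD, and 104 and 106 in Ino80KD. Chromosome 19 listed 27.5 and 27.2 in Control against 29.3 to 30.2 after depletion, and was also higher in every depleted library. Chromosome 6 was lower in all of them, with 44.6 and 45.3 per 1000 in Control and 39.01 to 41.4 after depletion. The sides overlapped on the other 18 of 21 chromosomes. Chromosomes 11 and 19 stood at places 3 and 5 of 21 in mean gene number around their baits, with 33.7 and 28.9 genes, and chromosome 6 stood at place 15 with 17.6. At places 1, 2 and 4 stood chromosomes 17, 7 and 10, with 38.7, 36.9 and 33.6 genes, where the sides overlapped. Their ratios of the depleted to the Control mean were 1.05, 0.986 and 1.07, so the calls did not simply follow gene number. Leaving out chromosomes 11 and 19, the mean number of genes was 25.3 ± 0.314 (SD, n = 2) in Control and 26.2 ± 0.443 (SD, n = 4) after depletion, and the sides still did not overlap. Counting each bait of a library once, the depleted mean was 24.8 ± 0.390 (SD, n = 4) against 24.1 ± 0.326 (SD, n = 2), and the sides overlapped.

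Few single loops followed the division between Control and depleted libraries. Of the 49634 intrachromosomal loops with identical ends in the union of the lists, 624 were listed in both Control libraries and in no depleted library, which is 1.26% of the union. Another 96 were listed in all 4 depleted libraries and in neither Control library, which is 0.193%. The second pattern needs agreement of 4 lists and the first of 2, so these counts are not set against each other. By comparison 1546 loops were in all 6 lists, 5073 in both Control lists and 2019 in all 4 depleted lists. Taken alone, Brg1KD left 1341 loops listed only in both Control libraries and 733 only in both of its own. For Ino80KD, measured against the same Control libraries, these numbers were 1086 and 983. When ends within 5 kb counted as the same, the patterns held 723 and 219 loops. Without Control 1 or Control 2 the Control-only count was 6614 or 6716, and leaving out any 1 library put the depleted-only count between 206 and 327, as fewer lists then had to agree. Of the 624 loops, 302 had no loop within 5 kb in any depleted list, and 45 of the 96 had none in a Control list.

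**Figure D2:**
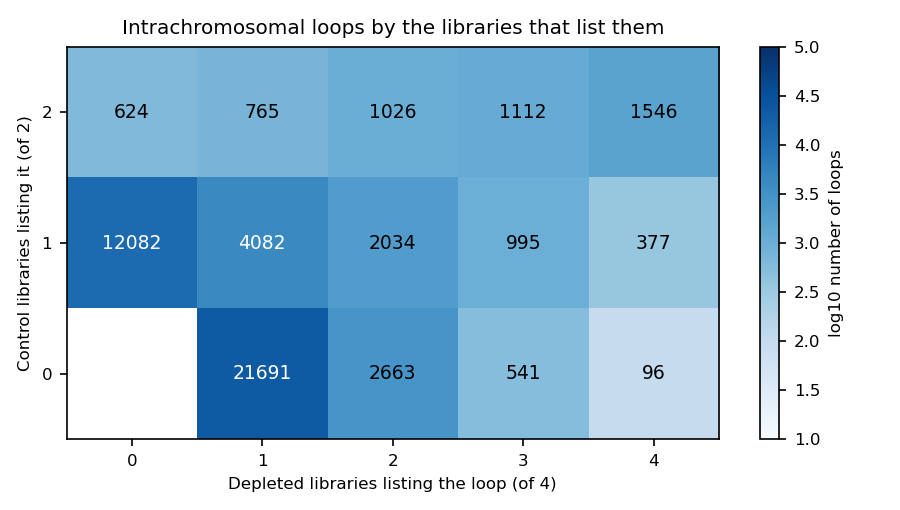
The grid counts intrachromosomal loops by how many of 4 depleted libraries (horizontal axis) and how many of 2 Control libraries (vertical axis) list them, with shading on a log10 scale. Most loops lie in the cells for a single library, 21691 and 12082, against 624 at the Control-only corner, 96 at the depleted-only corner and 1546 listed everywhere.

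Lists of different libraries shared loops to about the same degree within a group and across the sides. Within 5 kb, a library's loops were found in the other library of its group in 45.3% to 51.8% of cases, with a median of 49.7% over 6 ordered pairs. Between Brg1KD and Ino80KD libraries the range was 44.5% to 51.2%, with a median of 46.4% over 8 pairs. Depleted loops were found in a Control list in 48.4% to 53.8% of cases, and Control loops in a depleted list in 42.8% to 51.8%. These ranges overlap, and a share rises with the length of the list searched, so the 2 depletions were not seen to share more loops with each other than with Control.

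The 624 Control-only loops had a median span of 293 kb and lay on 600 baits, and 34.5% of their other ends held a gene end. The 96 depleted-only loops had a median span of 181 kb, lay on 94 baits and held a gene end at the other end in 43.8% of cases. Spans shortened with the number of lists a loop was in. The median was 184 kb for loops in both Control lists, 140 kb for those in all 4 depleted lists and 130 kb for those in all 6, so the spans of these patterns are not compared. The share with a gene end at the other end also differed with the number of lists. It was 33.1% for loops in 1 library only and 36.7% for those in both Control lists. For loops in all 4 depleted lists it was 40.1% and for those in all 6 it was 39.3%, so these shares are not compared either. No bait held more than 2 loops of either pattern. Chromosome 11 held 15 of the 96 depleted-only loops, or 15.6%, against 9.78% of the Control-only loops and 9.52% of the union. It is the chromosome already called higher from the same lists, so this share partly restates that call. Chromosome 7 also held 15, with 14.2% of the union. Chromosomes 17 and 3 held 9.38% and 7.29%, against 6.46% and 4.26% of the union.

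Among Control-only loops the 10 with the highest score ranks at a named bait had baits at Clec4f, Gm5150, Igfbp1, Tut1, Olfr1065, Tex24, Spty2d1, Elmod3 and Retsat, Saxo1, and Fastkd2 and Mdh1b. The bait of Igfbp1, which encodes a secreted binding protein of insulin-like growth factors, at chr11:7196662-7198521 was joined to chr11:8380001-8400000, 1192 kb away, with authors' scores of 10.7 and 12.4 in Control 1 and 2. No depleted library listed that pair with identical ends, but 2 of the 4 listed one within 5 kb. In the authors' deposited tables its log2 fold change was -0.23 with a standard error of 0.30 in Brg1KD and -0.23 with a standard error of 0.30 in Ino80KD. The bait of Spty2d1, which encodes a histone chaperone, was joined to a region 141 kb away with scores of 10.5 and 8.91 in Control, and no depleted list held a loop within 5 kb. In the authors' deposited tables the value was -0.27 ± 0.34 (the authors' standard error) in Brg1KD and -0.69 ± 0.36 in Ino80KD. The bait of Tut1, a terminal uridylyltransferase gene, was joined over 125 kb to a region at Hnrnpul2 with scores of 10.4 and 11.5, and 1 depleted list held a loop nearby. The authors' deposited tables give -0.69 ± 0.37 for Brg1KD and -0.18 ± 0.32 for Ino80KD. Loops of 3 of these 10 baits, those of Spty2d1, Saxo1, and Fastkd2 and Mdh1b, had none within 5 kb in any depleted list. At the other extreme, all 4 depleted lists held a loop within 5 kb of that of Tex24. For it the authors' deposited tables give 0.01 ± 0.56 in Brg1KD and 0.19 ± 0.53 in Ino80KD.

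Among depleted-only loops the corresponding baits were those of Emc6 and Tax1bp3, Pnma3, Apom, C4b, Cryaa, Phlda2, Lypd5, Mmp19, Scgb1b3 and Vip. The bait of C4b, a complement component gene, at chr17:34743143-34745002 was joined to chr17:34440001-34460000 at scores of 7.01 and 9.39 in Brg1KD and 8.72 and 6.82 in Ino80KD. No Control list held a loop within 5 kb of it. In the authors' deposited tables its log2 fold change was 0.97 ± 0.48 (the authors' standard error; p = 0.0412 before adjustment and 1.00 after) in Brg1KD and 0.71 ± 0.45 in Ino80KD. C4b has a near-identical neighbour, and the handling of reads that fit both is not given here. The bait of Pnma3, one of a gene family derived from a retrotransposon Gag gene, was joined over 485 kb at scores of 8.82, 7.24, 8.20 and 7.67 in Brg1KD 1 and 2 and Ino80KD 1 and 2, and 1 Control list held a loop within 5 kb. The authors' deposited tables give 0.23 ± 0.39 and 0.16 ± 0.39. The bait of Mmp19, a matrix metalloproteinase gene, was joined over 181 kb at scores of 10.7, 7.03, 6.18 and 6.21, with none nearby in Control, and the authors' deposited tables give 0.31 ± 0.32 and 0.28 ± 0.31. The loop at Vip, which encodes a neuropeptide, ended at Fbxo5, 151 kb away. The authors' deposited tables give it log2 fold changes of 0.43 ± 0.25 and -0.02 ± 0.27. For the loops of Apom, Cryaa and Phlda2 both Control lists held one within 5 kb, and for 5 of the 10 loops neither did.

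The deposited comparison tables, which share the Control libraries, call no contact. Over 33243 contacts for Brg1KD and 34774 for Ino80KD, the smallest adjusted p in the authors' deposited tables rounds to 1.00. Before adjustment, 275 contacts were lower and 124 higher at p under 0.05 in Brg1KD, and 133 lower and 317 higher in Ino80KD, in the authors' deposited tables. The sign of the fold change is not explained by the headers. Loops listed only in both libraries of a depletion had values above 0 in 83.8% of cases for Brg1KD and 86.1% for Ino80KD in the authors' deposited tables, and those only in both Control libraries in 17.3% and 16.2%, so a value above 0 is read as higher after depletion. For the 10 named Control-only loops the authors' deposited tables run from -0.69 to 0.01 in Brg1KD and from -0.88 to 0.19 in Ino80KD. For the 10 named depleted-only loops they run from 0.06 to 1.10 and from -0.25 to 0.90. Of these 20 loops 1, that of C4b, had p under 0.05 before adjustment, in the Brg1KD table alone. The loops were chosen by where they were listed, which these signs partly restate.

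Counted by bait, 94 promoters listed fewer loops per 1000 in every depleted library than in either Control library, and 136 listed more. These are 5.33% and 7.72% of the 1762 baits with at least 12 loops in the 6 lists together. That minimum sums over 4 depleted and 2 Control lists, so a bait high after depletion can pass it through the depleted side alone. It therefore favours the higher calls, and the shares are not set against each other. Ordering alone would put the Control pair at a given end in 1 of the 15 ways to choose it. Neither share stands apart from that, so the calls are a description only. By the same rule 1 of 21 chromosomes was lower and 2 were higher, and 1 of 24 gene lists was lower and none higher. A loop was counted at each bait it touched. Baits with a protein-coding gene end on them or within 2 kb were named, 69 of the 94 and 101 of the 136. The lower baits had a median of 29 genes within 500 kb and the higher baits 34, against 32 over all baits counted. Because the lists differ in length and the depleted ones are shorter on average, the scaling to 1000 loops can set equal numbers apart. On the unscaled numbers 82 baits were lower and 43 higher, and 78 of the 94 and 43 of the 136 were called again. With a score of at least 7 the calls were 12 and 16, of which 3 and 3 were among those above, and with lists cut to an equal length they were 59 and 58. Without Control 1 they were 239 and 265 and without Control 2 they were 186 and 281, since 1 Control value then sets the bound.

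**Figure D3:**
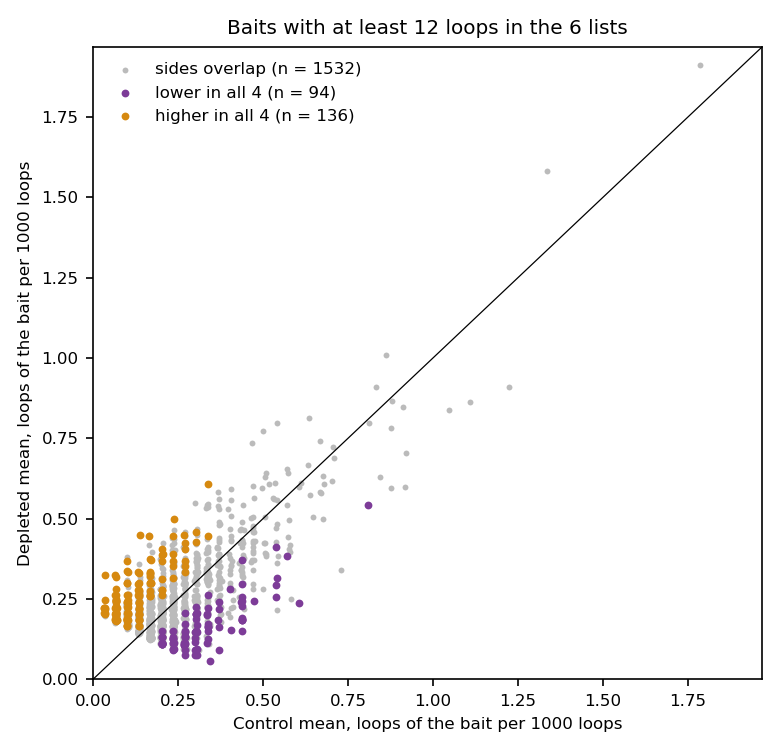
Each point is a bait with at least 12 loops, plotted by its mean loops per 1000 in the 2 Control libraries (horizontal axis) and the 4 depleted libraries (vertical axis), with the line of equal values. The 94 baits lower in every depleted library and the 136 higher ones are coloured apart from the 1532 baits whose sides overlap.

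The named baits with fewer loops after depletion were led by Rbmxl2, which encodes an RNA-binding protein of male germ cells. At its bait, chr7:107208325-107210184, 10 and 8 loops were listed in Control, 2 and 2 in Brg1KD, and 3 and 6 in Ino80KD. This is 0.604 ± 0.0685 per 1000 (SD, n = 2) in Control and 0.237 ± 0.127 (SD, n = 4) after depletion, with no overlap, and its promoter is among those printed above. At Igfbp1, 6 and 5 loops were listed in Control, 1 and 1 in Brg1KD, and 2 and 1 in Ino80KD, or 0.369 ± 0.0313 (SD, n = 2) and 0.0915 ± 0.0302 per 1000 (SD, n = 4). It lay in a gene-poor region, with 3 genes within 500 kb. At Hpn, the gene of the serine protease hepsin, 6 and 7 loops in Control stood against 4 and 0 in Brg1KD and 2 and 2 in Ino80KD. The Olfr993 bait had 2 and 8 loops in Control and 1 or none in each depleted library, so its Control values differed from each other more than Control 1 did from the depleted libraries. The others were Psg29, Crnn, Mup2, Olfr1009, H2-M10.1 and Scgb2b3, with 6 to 9 loops in each Control library and 0 to 6 in each depleted one. Several of these genes (Psg29, Mup2, Scgb2b3, H2-M10.1 and the olfactory receptors) belong to clusters of similar copies, where reads may be shared between copies. All 10 were also lower on the unscaled numbers. Log2 fold changes in the authors' deposited tables were averaged over the contacts of a bait, with inverse squared errors as weights. In Brg1KD these averages ran from -0.67 (Rbmxl2, weighted standard error 0.11) to 0.15 (Psg29, 0.11). In Ino80KD they ran from -0.60 (Mup2, 0.37 over 4 contacts) to 0.05 (Hpn, 0.11). For Hpn the averages from the authors' deposited tables were 0.09 and 0.05, so that bait was not lower in either. Psg29 was not lower in Brg1KD. The baits were chosen by their listed loops in these libraries, which the signs of the averages partly restate.

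The named baits with more loops were led by Nmrk2, which encodes a nicotinamide riboside kinase. Its bait, chr10:81201298-81203157, listed 1 and 3 loops in Control, 5 and 9 in Brg1KD, and 5 and 5 in Ino80KD. This is 0.137 ± 0.101 per 1000 (SD, n = 2) in Control and 0.449 ± 0.166 (SD, n = 4) after depletion. The bait shared by Fam214b and Unc13b, of which Unc13b acts in synaptic vesicle release, listed 0 and 1 loops in Control, 6 and 5 in Brg1KD, and 2 and 4 in Ino80KD. At Cdk2, the gene of a cyclin-dependent kinase of the S phase entry, 2 and 1 loops in Control stood against 4 and 4 in Brg1KD and 4 and 8 in Ino80KD, or 0.100 ± 0.0432 (SD, n = 2) and 0.369 ± 0.134 per 1000 (SD, n = 4). The bait of Tep1, a telomerase-associated protein gene, listed 4 and 6 loops in Control, 7 and 7 in Brg1KD, and 8 and 11 in Ino80KD. The remaining baits were those of Lmntd2 and Rassf7, Fxyd5 and Fxyd7, Nup98 and Pgap2, Nim1k, Elane, and Pnma3. At Pnma3 there were 4 and 3 loops in Control, 7 and 4 in Brg1KD, and 7 and 6 in Ino80KD, so that Brg1KD 2 equalled Control 1 in number and exceeded it only per 1000. On the unscaled numbers 6 of these 10 were higher in every depleted library, and the sides touched or overlapped at Fxyd5 and Fxyd7, Nup98 and Pgap2, Elane, and Pnma3. The same averages from the authors' deposited tables ran from -0.05 to 0.38 (Nmrk2) in Brg1KD and from 0.18 to 0.32 in Ino80KD. In Brg1KD they were -0.05 for Tep1 and -0.05 for the bait of Nup98 and Pgap2 in the authors' deposited table, against the direction of the call. These baits too were chosen by their listed loops, which the signs of the averages partly restate.

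**Figure D4:**
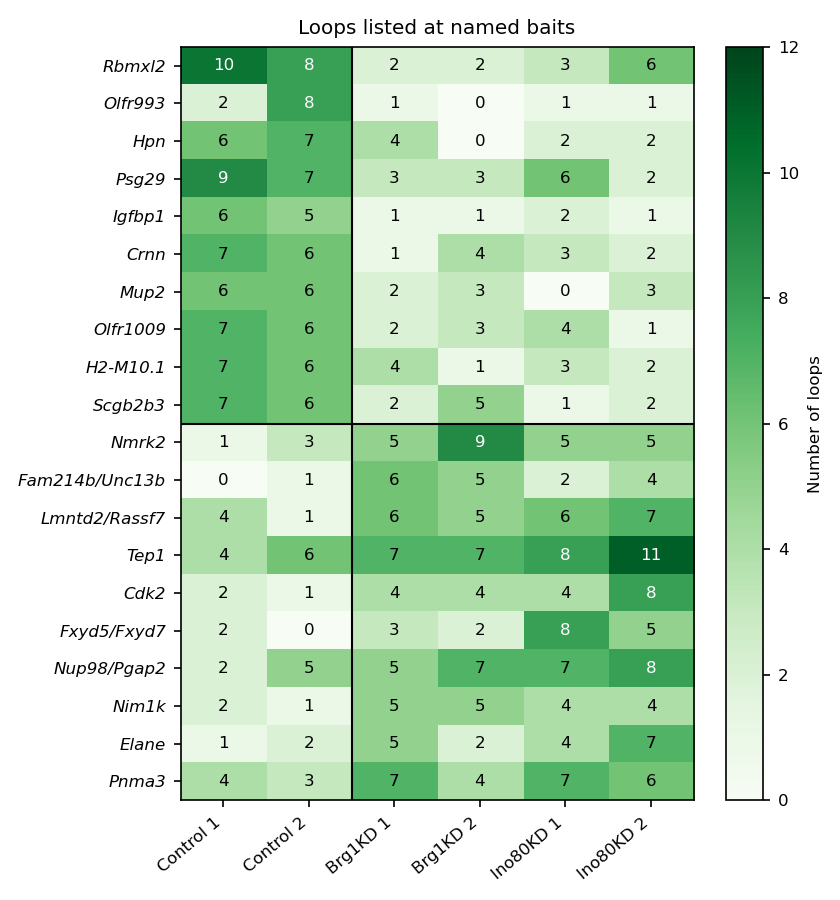
The grid gives the number of listed loops at the 10 named baits with the largest difference downward (upper block) and the 10 with the largest difference upward (lower block) per 1000 loops, with 1 column per library and darker shading for more loops. Rbmxl2 goes from 10 and 8 loops in Control to between 2 and 6 after depletion, and Nmrk2 from 1 and 3 to between 5 and 9.

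Of the core pluripotency genes, Pou5f1 and Nanog were counted and not called, while Sox2 and Klf4 had fewer than 12 loops and could not be. Pou5f1, which encodes Oct4, listed 5 and 2 loops in Control, 3 and 3 in Brg1KD, and 6 and 5 in Ino80KD. Nanog listed 1 and 2 loops in Control, 3 and 1 in Brg1KD, and 9 and 3 in Ino80KD. Sox2 listed 1 and 1, 0 and 0, and 2 and 1 in the same order, and Klf4 no more than 1 in any library. At Pou5f1 and Nanog the sides overlapped. No bait of the lists had an end of Smarca4, Ino80 or Esrrb on it or within 2 kb, so the targeted genes' own promoters were not assessed. Over the list of 18 pluripotency baits, 15 and 14 loops were listed in Control, 10 and 10 in Brg1KD, and 29 and 17 in Ino80KD. Per 1000 loops this was 0.979 and 0.973, 0.816 and 0.771, and 1.98 and 1.20, with Brg1KD below and Ino80KD above both Control libraries.

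Over 24 gene lists, zinc finger protein genes were the only list whose sides did not overlap. Many of these genes encode KRAB repressors of retroelements. Loops with an end on one of their 281 baits numbered 309 and 290 in Control, 203 and 235 in Brg1KD, and 286 and 275 in Ino80KD. This is 20.2 and 20.1 per 1000, 16.6 and 18.1, and 19.5 and 19.5. The mean was 20.2 ± 0.0140 (SD, n = 2) in Control and 18.4 ± 1.39 (SD, n = 4) after depletion, a ratio of 0.914, and within batch 1 the ratio was 0.894. The Ino80KD values lay close under Control and most of the difference came from Brg1KD. With a score of at least 7 the difference turned, to 1.39 per 1000 more after depletion. By single baits, 0 of the 31 zinc finger baits counted were lower in every depleted library and 1, Zfp579, was higher, against 5.33% and 7.72% of all baits, and the median difference over the 31 was -0.0543 per 1000 against 0.00914 over all baits counted. Zfp579 listed 2 loops in each Control and each Brg1KD library and 4 in each Ino80KD library, so its Brg1KD values exceeded Control by the scaling alone.

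In 5 lists the depletions lay on opposite sides of both Control libraries, so that their pooled mean hid them. At replication-dependent histone genes, which supply histones in S phase, there were 10.8 and 7.57 loops per 1000 in Control, 5.06 and 6.33 in Brg1KD, and 11.5 and 13.96 in Ino80KD, and the pooled ratio was 1.00. At homeobox developmental regulators other than the Hox genes there were 7.05 and 5.91 in Control, 4.49 and 3.32 in Brg1KD, and 7.56 and 9.49 in Ino80KD. Of 20 baits counted in that list 2 were lower in every depleted library and none higher, against 5.33% and 7.72% of all baits. These were Vax2 (5 and 4 loops in Control, 0 and 1 in Brg1KD, 1 and 3 in Ino80KD) and Irx2 (7 and 6, 2 and 3, 4 and 5), both homeobox genes of the embryo, of which Vax2 acts in the eye. At T-box, GATA, Sox and forkhead regulators, Brg1KD listed 3.75 and 3.09 per 1000 and Ino80KD 5.32 and 4.75, against 3.85 and 4.10 in Control. The bait of Sox15 stood apart from its list, with 2 and 3 loops in Control, 5 and 4 in Brg1KD and 6 and 5 in Ino80KD, and was higher in every depleted library. Averaged over the contacts of that bait with inverse squared errors as weights, the authors' deposited tables give log2 fold changes of -0.26 for Brg1KD, the opposite direction, and 0.10 for Ino80KD. The pluripotency list above and the primitive endoderm markers, at 0.587 and 0.625 in Control, 0.490 and 0.231 in Brg1KD, and 0.886 and 0.921 in Ino80KD, were the others. None of these differences between the depletions was tested. The 5 lists are not separate, as Sox2 and Tbx3 (pluripotency) and Gata4 and Sox17 (primitive endoderm) are of the T-box, GATA and Sox families.

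**Figure D5:**
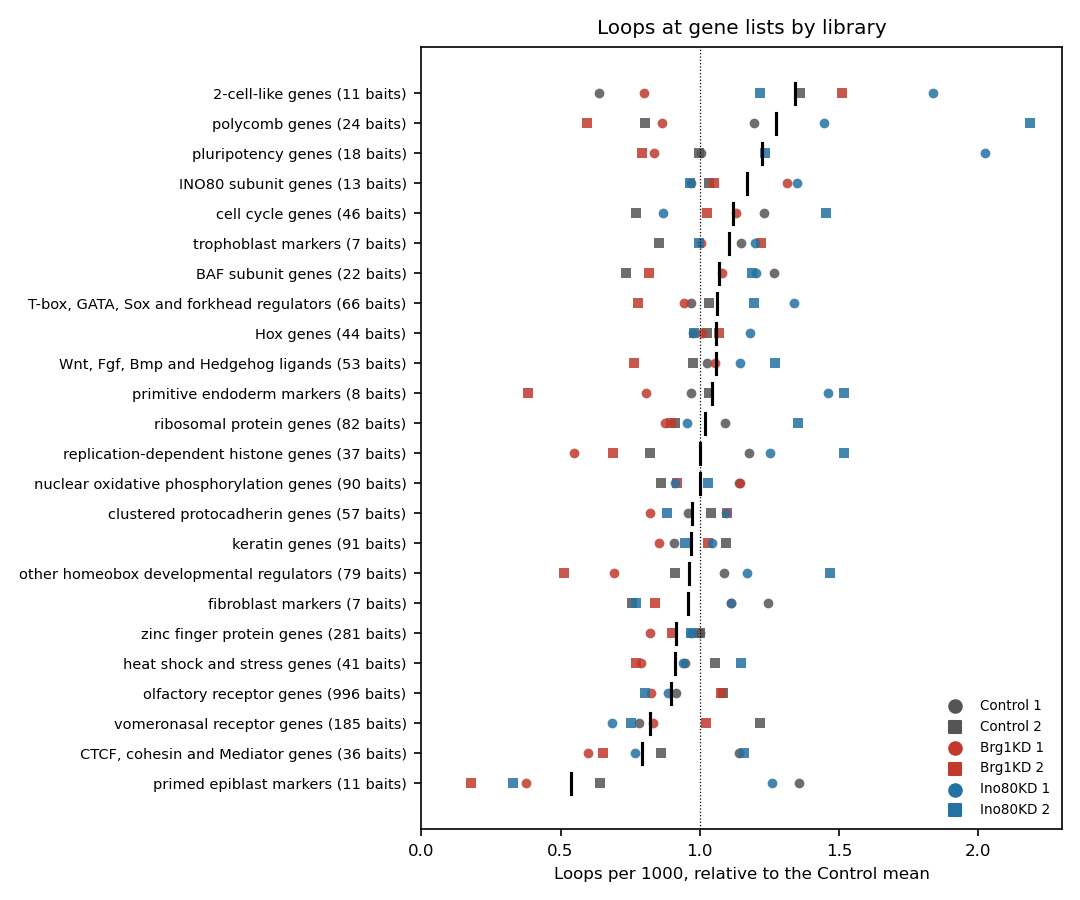
Loops per 1000 with an end on a bait of each of 24 gene lists are plotted relative to the Control mean (dotted line at 1), 1 symbol per library, with a black bar at the mean of the 4 depleted libraries. All 4 depleted libraries lie below both Control libraries for zinc finger protein genes alone, and Brg1KD and Ino80KD lie on opposite sides of Control for 5 lists, among them the replication-dependent histone genes.

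The other 18 lists overlapped without such a division. Hox genes, the body axis regulators, listed 5.29 and 5.56 loops per 1000 in Control, 5.47 and 5.79 in Brg1KD, and 6.41 and 5.31 in Ino80KD. Of 17 Hox baits counted 2 were higher in every depleted library, against 7.72% of all baits. These were Hoxc4 (3 and 3 loops in Control, 3 and 7 in Brg1KD, 5 and 7 in Ino80KD) and Hoxc11 (3 and 2, 3 and 4, 7 and 4), both equal to a Control library in number in Brg1KD 1. At the largest list, olfactory receptors, there were 55.5 and 65.7 per 1000 in Control, 50.02 and 65.3 in Brg1KD, and 53.7 and 48.5 in Ino80KD. Of its 64 baits counted 5 were lower, Olfr993, Olfr1009 and Olfr322 being the foremost, and 1 higher in every depleted library, against 5.33% and 7.72% of all baits. Of 37 keratin baits none was lower and 2, Krt79 and Krt5, were higher, against the same 5.33% and 7.72% of all baits. Subunit genes of the remodellers themselves overlapped too, at 1.13 ± 0.426 (SD, n = 2) and 1.21 ± 0.202 per 1000 (SD, n = 4) for BAF, and 0.808 ± 0.0357 and 0.945 ± 0.154 for INO80. Polycomb genes stood at 1.04 ± 0.287 and 1.32 ± 0.731, and genes of CTCF, cohesin and Mediator at 1.78 ± 0.350 and 1.41 ± 0.449. Ribosomal protein genes stood at 3.36 ± 0.423 in Control and 3.42 ± 0.751 after depletion. Of their 8 baits counted 1 was lower, against 5.33% of all baits. It was the bait shared by Fam83e, Rpl18 and Sphk2 (5 and 5 loops in Control, 1 and 2 in Brg1KD, 3 and 3 in Ino80KD). Against 7.72% of all baits, single baits of further lists were higher in every depleted library per 1000 loops, namely Bmp5 among 9 baits of signalling ligands, Atp5d among 14 of oxidative phosphorylation genes, Pcdhgb7 among 21 of clustered protocadherins, Vmn1r189 among 6 of vomeronasal receptors, and Cdk2, described above, among 3 of cell cycle genes. On the unscaled numbers the sides overlapped or touched at all of these but Cdk2. For Bmp5 the weighted average in the authors' deposited Ino80KD table was -0.27, the opposite direction. Markers of other cell types listed few loops, over 7 fibroblast, 7 trophoblast and 11 primed epiblast baits, against 18 pluripotency baits. The values are totals over lists of unlike size, so they do not compare cell types. Fibroblast markers stood at 0.367 ± 0.127 and 0.352 ± 0.0657 per 1000, trophoblast markers at 0.569 ± 0.118 and 0.628 ± 0.0688, and primed epiblast markers at 0.433 ± 0.219 and 0.232 ± 0.212 (SD, n = 2 in Control and n = 4 after depletion).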

How the data were processed

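Promoter-capture Micro-C was compared between 4 depleted and 2 Control libraries of E14 cells. The authors deposited, per library, a list of loops from a score of 5 up, and, per depletion, a table with log2 fold changes, their standard errors and p-values before and after adjustment, per the file headers. The loop caller, the depth and any filter on similar copies are not given in the sources used here. Per the submitters' processing notes, bedtools served in the processing and coordinates are on mm10. Loops are pairs of a bait and another end, and 68.4% of other ends were bins of 20 kb. Scores were used within a list only, to rank or filter loops.

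Loops touching the bait absent from the group lists were left out. Spans run between the middles of the ends. Baits were named by protein-coding RefSeq genes of GRCm38.p6 with either end on the bait (12033 of 19069) or within 2 kb (1238), and 5798 stayed unnamed. Counts per bait and per gene list were divided by the intrachromosomal loops of the library and given per 1000. Baits with at least 12 loops in all lists were counted, and a bait was called where every depleted library lay beyond both Control libraries. For library values an exact permutation test, two-sided, ran over the 15 assignments of the Control pair. Loops, baits and lists were described without a test. Scripts were tested on simulated data, with Python 3.11.15, pandas 2.3.3, numpy 2.4.6 and matplotlib 3.10.9.

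Named loops were, on each side, the 10 with the highest lowest rank in the lists that hold them and a named bait. Named baits were the 10 called ones in each direction with the greatest difference in means, up to 3 called ones per gene list, and Smarca4, Ino80, Pou5f1, Nanog, Sox2, Klf4 and Esrrb. The comparison and the lists were chosen with earlier results of these data known. Alternatives were a higher score minimum, lists of equal length, the left-out bait kept, ends within 5 kb, each library left out, each depletion alone, batch 1 alone, a replicate block, other bait minimums and other naming rules. Unscaled numbers, naming by gene start and the measures of gene density were added after seeing the data.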

Additional observations from a re-analysis of the deposited data

Results flagged for a closer look

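In 5 gene lists and 2 further measures both Brg1KD libraries lay on one side of both Control libraries and both Ino80KD libraries on the other. These differences between the depletions were not tested, and some of the 5 lists overlap in gene families. Per 1000 loops, the Ino80KD mean exceeded the Brg1KD mean by 7.04 at replication-dependent histone genes, 4.63 at other homeobox developmental regulators, 1.61 at T-box, GATA, Sox and forkhead regulators, 0.797 at pluripotency genes and 0.543 at primitive endoderm markers. On chromosome 13, which holds a histone gene cluster, it exceeded it by 11.1 per 1000, with 39.7 and 36.6 in Control, 29.1 and 33.1 in Brg1KD, and 39.9 and 44.4 in Ino80KD. Loops per bait differed by 0.103, from 1.66 in Brg1KD to 1.76 in Ino80KD, with 1.75 in Control.

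Among the 4 depleted libraries 3 values stood far from the others. These were 4.53 loops per 1000 at ribosomal protein genes in Ino80KD 2, 43.7% of loops between 250 kb and 1 Mb in Brg1KD 2, and a mean of 24.2 genes within 500 kb, each bait counted once, in Ino80KD 1. They come from 60 values screened, which are not independent, by a gap rule under which chance flags about 1 in 20 groups.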

How the results depend on the processing

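No library value passed a test under any alternative, and with these designs none could. Fewer intrachromosomal loops, a shorter median span and a lower share over 1 Mb after depletion kept their direction in every alternative run. The interchromosomal difference of 75.5 loops turned to -220 with a score of at least 7 and -222.5 for Ino80KD alone, and ran from -225 to 243 with 1 library left out. The share between baits, 0.00411 percentage points higher, turned to -0.897 for Brg1KD alone and -0.926 within batch 1, and ran from -0.505 to 0.448 with 1 library left out. With the replicate block, replicate numbers being shared by label only, the differences stay the same (-1357 intrachromosomal loops, exact permutation p = 0.222, the smallest it allows).

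Control-only loops numbered 156 with a score of at least 7, 1341 for Brg1KD alone, 1086 for Ino80KD alone, and 768 to 6716 with 1 library left out, the highest counts without a Control library, when 1 list suffices. Depleted-only loops numbered 15, 733 and 983 under the same settings, 219 with ends within 5 kb, and 206 to 327 with 1 library left out. Baits lower numbered 12 with a score of at least 7, 59 with lists of equal length, 232 and 17 at minimums of 6 and 24 loops, and 90 to 239 with 1 library left out. Baits higher numbered 16, 58, 424 and 24 under those settings, 205 for Ino80KD alone, 43 on unscaled numbers, and 138 to 281 with 1 library left out. The zinc finger difference of -1.74 per 1000 turned to 1.39 with a score of at least 7 and was between -2.81 and -0.67 elsewhere. Of 360 alternative values over the 24 lists, 337 moved by less than the spread between libraries, which includes the gap between the depletions, so this does not show stability. In 69 of them, over 20 lists, the sign turned (histone genes -3.51 for Brg1KD alone, 3.53 for Ino80KD alone). The difference in gene density ran from 0.503 to 1.66 over its alternatives, some of them on other scales, and the sides overlapped in 4 of 7.

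Depth is unknown here, and most baits list so few loops that 1 loop more or less can end a call. The depleted second libraries and the second Control library are in different batches, so outside batch 1 the batch and the depletion cannot be told apart.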
